A study of Homo sapiens with 14 samples.

Results

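The 31 genes described here are the KRAB zinc finger genes that lie side by side on the short arm of human chromosome 19, in band 19p12. They were chosen by symbol and position, and in the hg19 annotation they run from ZNF253 to ZNF254 (chr19:19976691-24312770, a stretch of 4.34 megabases), out of 19726 gene identifiers in the 2 count tables. The choice used no expression threshold, but it was made with results of both comparisons known, so the counts of members below are descriptions of these libraries. RNA-seq was carried out in CHP-134, a human neuroblastoma line with amplified MYCN, the gene for N-MYC. In the engineered experiment, cells transduced with lentivirus and selected with G418 expressed EGFP, the control, or OmoMYC, a MYC-derived inhibitor protein, and both groups received 1 µg/ml doxycycline for 3 days (3 libraries each). In the parental experiment, cells without an engineered construct were treated for 18 h with DMSO, the solvent, or with 500 nM dTAG47, a compound that directs proteins carrying an engineered FKBP tag to the ubiquitin ligase cereblon (4 libraries each). The study's methods call the libraries of each group biological replicates. Whole read counts per gene were available, 28060817 to 38358128 per engineered library and 40861430 to 53451641 per parental library. In every group, 15 of 17 neuroblastoma markers were above 1 CPM (counts per 1000000 of the scaled library size) in each library. Their summed level was 5178 to 5943 CPM in EGFP and 5335 to 5587 CPM in OmoMYC libraries, and 5555 to 5977 CPM over the parental libraries. Of 17 markers of leukocytes, endothelium, epithelium, liver, fibroblasts and Schwann cells, 3 to 5 were above 1 CPM in each library of a group, and their summed level was 41.2 to 56.0 CPM in engineered and 22.1 to 29.3 CPM in parental libraries. As these are bulk samples, fewer cells of a type and less RNA per cell cannot be told apart.

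KRAB zinc finger proteins are repressors of transcription. A row of C2H2 zinc fingers reads the DNA sequence, and the KRAB domain at the other end of the protein recruits TRIM28, also called KAP1. TRIM28 in turn brings in the histone H3 lysine methyltransferase SETDB1, HP1 proteins and histone deacetylases. The family grew by tandem duplication in primates, and many of its members bind transposable elements. ZNF91 is known for binding SVA elements, and ZNF93 is known for binding young LINE-1 elements.

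The annotated proteins of the members carried between 5 and 36 C2H2 fingers, with a median of 13. ZNF208 had the most (36), ahead of ZNF729 (34) and ZNF91 (31), while ZNF738 had 5. A pattern for the core of the KRAB A box was found in 30 of the 31 proteins and was not found in the annotated ZNF492 protein. The genes were on both strands, 17 on the plus and 14 on the minus strand. Their exonic sequence was low in GC, with a median of 36.8% and a range of 33.9% to 41.1%, against a median of 48.3% over all genes tested in either experiment. Because the genes are copies of one another, stretches of 50 bases were compared with the transcripts of all other genes. A share of 58.0% of the stretches of ZNF98, 33.9% of ZNF492, 33.3% of ZNF208 and 28.5% of ZNF738 also occurred elsewhere, so the counts of these 4 genes are uncertain, while the share was under 12% for the other 27. A low share does not make a count certain. ZNF85 (3.1%) and ZNF100 (4.6%) were at 0.0396 and 0.0244 times their DMSO level in EGFP libraries. ZNF98 and ZNF492 shared most with each other.

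The genes also share promoter sequence, and examples are printed to show it. RefSeq (GRCh38.p14) gave a promoter for 24 of the 31 members. In the 250 bases before the start, CCAAT, the sequence bound by the factor NF-Y, was found on either strand in 24 of 24 members and in 33.0% of all 27305 promoters. The longer TCCAATCAG, which contains CCAAT, was found on either strand in 24 of 24 members and in 0.857% of all promoters, the members included. On the strand of the gene, 16 members held a pair of CCAAT copies whose first bases were 28 or 29 bases apart, and 1.51% of all promoters held a pair 20 to 40 bases apart. CACGTG, the canonical E-box to which MYC and MAX bind, was found in 0 of 24 members and in 6.49% of all promoters. These motifs were picked after some of the promoters had been looked at, and a match or its absence says nothing of what binds there. The 120 bases before the start are given here for the member called suppressed at the smallest adjusted p (ZNF675), the L1-binding ZNF93, the members with the highest CPM in the parental (ZNF43) and the engineered (ZNF91) experiment, the member with the largest fall (ZNF257), and a member that did not fall (ZNF429), with CCAAT in capitals.
ZNF675, minus strand, chr19:23687213-23687332: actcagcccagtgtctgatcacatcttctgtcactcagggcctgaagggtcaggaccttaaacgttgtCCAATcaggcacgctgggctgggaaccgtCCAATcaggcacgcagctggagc
ZNF93, plus strand, chr19:19900826-19900945: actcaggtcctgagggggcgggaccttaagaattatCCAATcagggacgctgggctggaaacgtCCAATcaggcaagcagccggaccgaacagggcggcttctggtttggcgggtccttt
ZNF43, minus strand, chr19:21836183-21836302: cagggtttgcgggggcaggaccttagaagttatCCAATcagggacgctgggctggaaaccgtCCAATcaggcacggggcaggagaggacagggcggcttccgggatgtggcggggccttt
ZNF91, minus strand, chr19:23395472-23395591: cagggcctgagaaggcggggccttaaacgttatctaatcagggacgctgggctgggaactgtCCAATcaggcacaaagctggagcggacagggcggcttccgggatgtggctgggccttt
ZNF257, plus strand, chr19:22052364-22052483: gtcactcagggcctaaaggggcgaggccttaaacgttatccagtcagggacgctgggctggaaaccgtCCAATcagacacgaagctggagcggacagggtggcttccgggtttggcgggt
ZNF429, plus strand, chr19:21505482-21505601: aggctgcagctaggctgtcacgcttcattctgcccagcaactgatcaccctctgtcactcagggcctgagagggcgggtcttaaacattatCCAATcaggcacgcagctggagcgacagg

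In these 6 stretches, ZNF675, ZNF93 and ZNF43 showed 2 copies of CCAAT, while ZNF91, ZNF257 and ZNF429 showed 1. The spacing was the same in ZNF675 as in ZNF43, with the pair nearer to the annotated start in ZNF675 (first bases at -52 and -23) than in ZNF43 (-87 and -58).

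Most of the members were expressed in CHP-134 cells. All 31 were listed in the parental table, and 28 passed the filter on low counts that keeps genes with enough reads in enough libraries. Of the members, 29 were listed in the engineered table (all but ZNF626 and ZNF729), and 23 passed the filter. On the scale of CPM per kilobase of exon, which allows genes to be set against each other, ZNF43 was the highest in DMSO libraries (11.7 ± 0.636, SD, n = 4). It was followed by ZNF708 (7.41 ± 0.399), ZNF91 (6.66 ± 0.46), ZNF730 (6.49 ± 0.375) and ZNF714 (5.98 ± 0.28), of which ZNF91 and ZNF730 lay within their spread of each other. In EGFP libraries ZNF708 (8.06 ± 0.579, SD, n = 3) and ZNF91 (7.12 ± 0.493) were the highest per kilobase. ZNF730 (6.08 ± 0.445), ZNF43 (5.98 ± 0.222), ZNF714 (5.93 ± 0.285) and ZNF254 (5.61 ± 0.545) were indistinguishable. At the other end, ZNF99 and ZNF728 had at most 3 counts in any of the 14 libraries, and ZNF729 had a single count in the parental table. These 3 genes were at or under the floor of 3 counts in every library that listed them, so no fold change is given for them.

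The level of several members differed between the 2 tables, and these members stood in runs along the chromosome. The tables were normalized separately, so the mean CPM in EGFP libraries is set beside that in DMSO libraries with no test. From ZNF90 to ZNF85, the EGFP level was 0.106 times the DMSO level for ZNF90, 5.29e-04 times for ZNF486, 6.08e-04 times for ZNF737 and 0.0396 times for ZNF85. ZNF626, inside the same run, was not listed in the engineered table and stood at 7.25 CPM in DMSO libraries. In a further run, ZNF100 was at 0.0244 times, ZNF43 at 0.511 times, ZNF208 at 0.26 times, ZNF257 at 0.299 times, ZNF98 at 0.0907 times and ZNF492 at 0.205 times the DMSO level. ZNF676, also in it, was at 0 in all EGFP libraries and at 7.73 CPM in DMSO libraries. The members in between had similar levels in both tables: ZNF430, ZNF714, ZNF431, ZNF708, ZNF738, ZNF493 and ZNF429 lay between 0.744 and 1.09 times, and ZNF730, ZNF91 and ZNF675 between 0.937 and 1.07 times the DMSO level. At the ends of the array, ZNF253, ZNF93 and ZNF682 were at 0.782 to 0.807 times, ZNF681 at 0.577 times, ZNF726 at 0.391 times and ZNF254 at 1.23 times. ZNF100, ZNF676 and ZNF737 were listed under a second identifier in the engineered table, which held at most 5 counts per library. The 2 tables do not list the same identifiers, and the part of this in these levels was not tested.

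**Figure D1:**
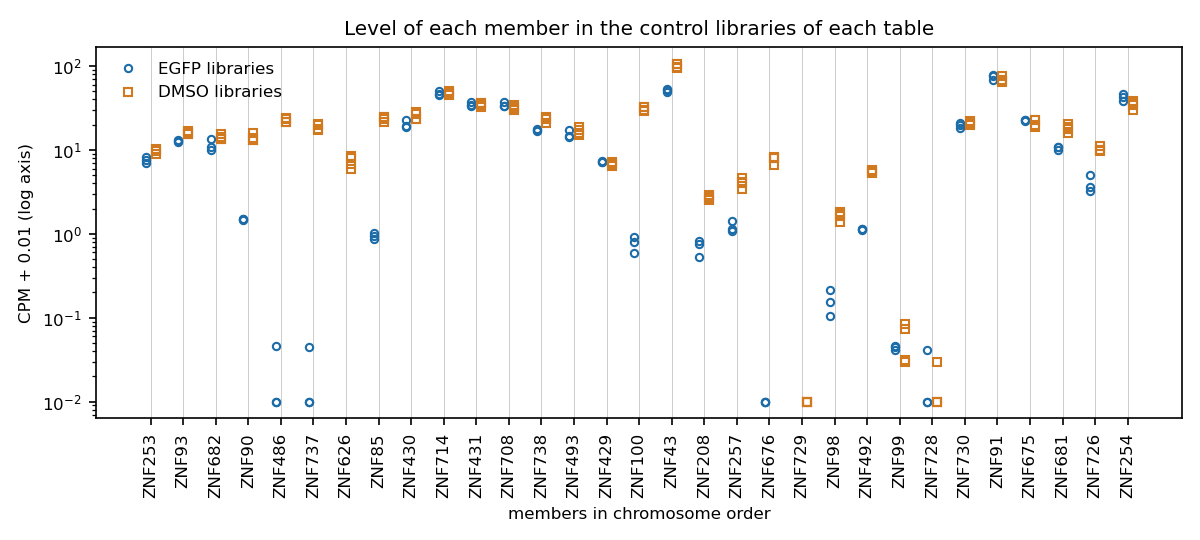
Level of the 31 members in chromosome order, as CPM plus 0.01 on a log axis, with 1 point for each EGFP library (circles, n = 3) and each DMSO library (squares, n = 4). ZNF486, ZNF737 and ZNF676 were near 0 in EGFP libraries and between 6.67 and 24.3 CPM in DMSO libraries, whereas ZNF91 and ZNF714 had similar levels in both.

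To see how the members responded to inhibition of N-MYC, OmoMYC libraries were compared with EGFP libraries. Of the 23 members tested, 17 were called suppressed and 0 induced by edgeR's quasi-likelihood test at an adjusted p under 0.05. Over all 13803 genes tested, 25.7% were called suppressed and 27.3% induced. The members' median log2 fold change was -0.46, against 0.01 over all genes tested, and 21 of 23 had a fold change below 0. No member was called induced by DESeq2 or limma-voom either, none had a rise at an unadjusted p under 0.05 (30.6% of all genes tested did), and DESeq2 called 16 suppressed. In 19 of the 23, each OmoMYC library was below each EGFP library, where 30.3% of all genes tested showed the same. Relative to the EGFP mean, the median member stood at 102%, 100.3% and 95.8% in the EGFP libraries and at 78.6%, 72.3% and 68.8% in the OmoMYC libraries.

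These values moved with the base composition of the genes. Of the 23 tested members, 22 were in the quintile of genes lowest in GC (29.2% to 40.5%), in which 50.9% of 2700 genes were called suppressed and the median log2 fold change was -0.29. In the quintile highest in GC (58.4% to 76.0%), 5.22% were called suppressed and the median was 0.33. When the trend of counts on GC content and exonic length was removed from each library, the members' median became -0.11, 4 were called suppressed (ZNF257, ZNF675, ZNF93 and ZNF43) and 1 was called induced (ZNF429). The fold change was then below 0 in 17 members and above 0 in 6, and ZNF91, ZNF253 and ZNF708, suppressed without the correction, were among the 6. Under this correction 27.5% of all genes tested were called suppressed and 30.7% induced, and the median of all genes was 0.02. The part of base composition in the falls was not tested further, and the sizes below are without the correction unless stated.

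**Figure D2:**
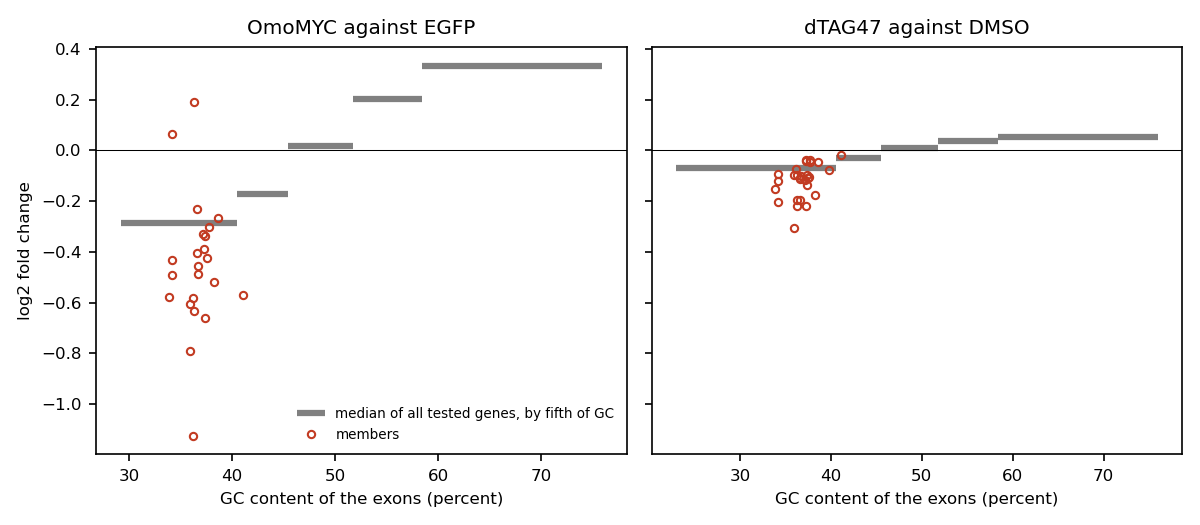
Log2 fold change of the members (circles) against the GC content of their exons, with the median over all tested genes in each GC quintile drawn as a grey bar, for OmoMYC against EGFP (left) and dTAG47 against DMSO (right). With OmoMYC the grey bars go from -0.29 in the lowest to 0.33 in the highest quintile, and the members sit at the low-GC end, mostly below the bar.

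The largest fall among called members was in ZNF257, on a low level. Its level was 1.42, 1.07 and 1.14 CPM in EGFP libraries and 0.478, 0.753 and 0.395 CPM in OmoMYC libraries, that is 30 to 45 counts against 12 to 29. No library of one group overlapped the other, and the log2 fold change was -1.12 ± 0.282 (SE, adjusted p = 0.0069, edgeR). It was also called with the GC and length correction (-0.74, adjusted p = 0.0286). The EGFP level of ZNF257 was 0.299 times its DMSO level, and the cause of this difference was not tested.

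ZNF492 and ZNF208, which share sequence with other genes and are uncertain for that reason, were also low. ZNF492 was at 1.14, 1.11 and 1.14 CPM in EGFP libraries and at 0.887, 0.701 and 0.362 CPM in OmoMYC libraries. Its log2 fold change was -0.79 ± 0.292 (SE, adjusted p = 0.0414, edgeR), and the call was lost when any of EGFP replicates 1, 2 or 3 or OmoMYC replicates 2 or 3 was left out (adjusted p up to 0.103). ZNF208 was at 0.82, 0.752 and 0.517 CPM in EGFP libraries and at 0.478, 0.415 and 0.461 CPM in OmoMYC libraries. The groups of ZNF208 did not overlap, but its log2 fold change of -0.63 ± 0.291 (SE) was not called (adjusted p = 0.0882, edgeR) unless EGFP replicate 3 was left out (0.0434).

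ZNF675 had the smallest adjusted p of the members. ZNF675 (ENSG00000197372.5, chr19:23708433-23870022 on the minus strand) encodes a protein also known as TIZ, for its reported inhibition of TRAF6 signalling. It was at 22.9, 22.5 and 22.01 CPM in EGFP libraries and at 14.3, 14.4 and 13.98 CPM in OmoMYC libraries. The replicates lay close together and the groups far apart, with a log2 fold change of -0.66 ± 0.08 (SE, adjusted p = 9.07e-05, edgeR). With the GC and length correction it was -0.32 (adjusted p = 0.0015).

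ZNF730, ZNF681 and ZNF93 fell by similar amounts. ZNF730 went from 21.2, 19.6 and 18.4 CPM in EGFP to 13.5, 13.5 and 12.5 CPM in OmoMYC libraries (log2 fold change -0.58 ± 0.0925 SE, adjusted p = 5.02e-04, edgeR). ZNF681 went from 10.8, 9.88 and 11.0 CPM to 6.72, 7.19 and 7.27 CPM (-0.58 ± 0.101 SE, adjusted p = 8.67e-04, edgeR). ZNF93, the L1-binding member, went from 12.8, 12.4 and 12.98 CPM to 9.14, 8.85 and 7.70 CPM (-0.57 ± 0.101 SE, adjusted p = 9.91e-04, edgeR). In all 3 genes each OmoMYC library was below each EGFP library, and with the GC and length correction only ZNF93 of the 3 was called (-0.30, adjusted p = 0.0092).

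The 3 members with the highest CPM, not corrected for length, were also called suppressed. ZNF91 was at 77.3, 75.4 and 67.7 CPM in EGFP libraries and at 61.3, 66.0 and 60.1 CPM in OmoMYC libraries. The SVA-binding ZNF91 thus stayed at 85.1% of its EGFP mean, the smallest fall of the 17 called (-0.23 ± 0.0787 SE, adjusted p = 0.0286, edgeR). Its call depended on single libraries, being lost when EGFP replicate 2 or either of OmoMYC replicates 1 and 3 was left out (adjusted p up to 0.107), and with the GC and length correction its log2 fold change was 0.06 (adjusted p = 0.281), in the other direction. ZNF43 was at 52.6, 53.1 and 49.5 CPM in EGFP libraries and at 36.2, 38.5 and 36.0 CPM in OmoMYC libraries (-0.49 ± 0.0738 SE, adjusted p = 3.79e-04, edgeR), and with the correction at -0.17 (adjusted p = 0.0247). ZNF714 was at 45.7, 50.2 and 47.0 CPM against 35.8, 33.8 and 36.8 CPM (-0.43 ± 0.0766 SE, adjusted p = 0.0011, edgeR), and was not called with the correction.

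**Figure D3:**
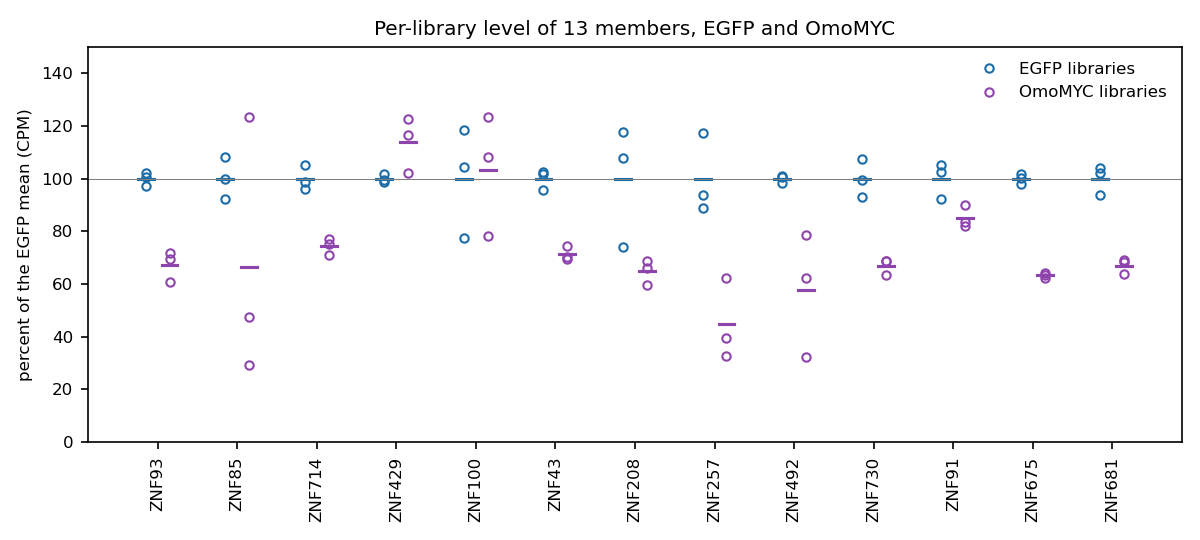
Level of 13 members in each EGFP and OmoMYC library as percent of the gene's EGFP mean in CPM (n = 3 libraries a group, short bars are means). ZNF675 lies between 62.2% and 64.1% in the OmoMYC libraries, ZNF85 spreads from 29.2% to 123%, and ZNF429 is above its EGFP libraries.

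The other 8 members called suppressed were ZNF253, ZNF682, ZNF430, ZNF431, ZNF708, ZNF738, ZNF493 and ZNF254, and their log2 fold changes lay between -0.30 (ZNF738) and -0.52 (ZNF682). Each of them had all OmoMYC libraries below all EGFP libraries. ZNF254, at the far end of the array, was at 46.6, 43.3 and 38.3 CPM in EGFP and at 32.2, 33.3 and 29.4 CPM in OmoMYC libraries. The calls of ZNF430 (without EGFP replicate 2) and ZNF253 (without EGFP replicate 2 or OmoMYC replicate 3) were lost when 1 library was left out. Altogether 13 of the 17 calls passed whichever library was left out.

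A few members did not follow the others. ZNF429 was at 7.13, 7.20 and 7.37 CPM in EGFP libraries and at 8.42, 8.88 and 7.40 CPM in OmoMYC libraries. It was the 1 tested member with each OmoMYC library above each EGFP library, by a narrow margin for replicate 3, and its log2 fold change of 0.19 ± 0.109 (SE) was not called (adjusted p = 0.164, edgeR). With the GC and length correction it was called induced (0.53 ± 0.109 SE, adjusted p = 3.84e-04, edgeR). ZNF100 was at 0.789, 0.895 and 0.586 CPM against 0.819, 0.934 and 0.592 CPM, with a log2 fold change of 0.06 ± 0.275 (SE). ZNF85 was at 1.01, 0.931 and 0.861 CPM in EGFP and at 0.273, 0.441 and 1.15 CPM in OmoMYC libraries, so that OmoMYC replicate 3 was above the EGFP libraries and the others below (-0.60 ± 0.415 SE, adjusted p = 0.242, edgeR). Without that library ZNF85 was called suppressed (adjusted p = 0.0093). ZNF90 (-0.46 ± 0.234 SE) and ZNF726 (-0.27 ± 0.177 SE) were not called, and each passed when 1 library was left out, OmoMYC replicate 1 for ZNF90 (adjusted p = 0.031) and EGFP replicate 1 for ZNF726 (0.0472). ZNF486, ZNF737, ZNF676, ZNF98, ZNF99 and ZNF728 were too low to be tested in this table, with at most 6 counts in any library.

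**Figure D4:**
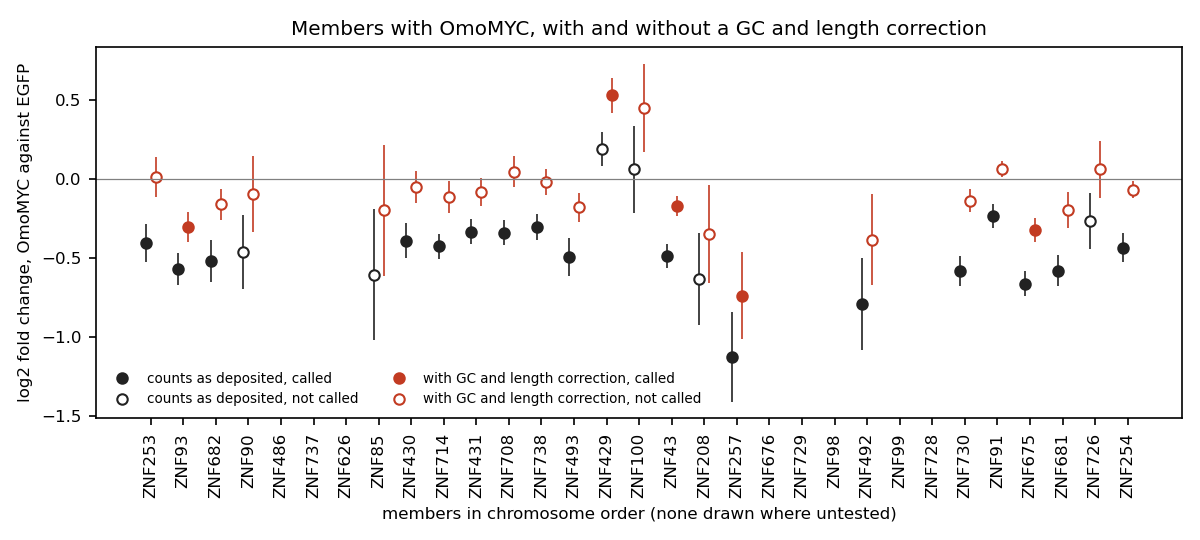
Log2 fold change of the 23 tested members, OmoMYC against EGFP, with SE bars and in chromosome order, from the counts as deposited (black) and after removing the trend on GC content and length (red), with filled circles for called members. Black circles lie below 0 for 21 members, and red circles are filled for 5, of which ZNF429 is above 0.

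The size of the falls was set beside the properties of the genes. Over the 23 tested members, Spearman's rho of the log2 fold change was -0.11 with the order on the chromosome, 0.06 with the number of fingers, 0.33 with exonic length, 0.28 with the level in EGFP libraries and 0.24 with GC content. Over the 28 members tested with dTAG47 it was 0.47 with GC content and between -0.05 and 0.16 with the other 4 properties. These are descriptions over genes that share sequence and libraries.

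The non-member zinc finger genes that lie within the same interval, ZNF66 and ZNF724P, were also called suppressed. ZNF66 was at 2.27 to 3.28 CPM in EGFP and 1.53 to 1.87 CPM in OmoMYC libraries (-0.62 ± 0.187 SE, adjusted p = 0.0166, edgeR). ZNF724P was at 49.6 to 52.9 CPM and 31.1 to 33.0 CPM (-0.68 ± 0.0729 SE, adjusted p = 4.31e-05, edgeR). Both stayed called with the GC and length correction (adjusted p = 0.046 and 0.0035). On the rest of 19p before the interval, 21 of 45 tested zinc finger genes were called suppressed and 4 induced (median log2 fold change -0.27), and on 19q 42 of 159 were called suppressed and 19 induced (-0.15). On other chromosomes 64 of 247 were called suppressed and 55 induced (-0.01). The shares called suppressed were thus 46.7% on 19p, 26.4% on 19q and 25.9% elsewhere. Of all genes tested, 25.7% were called suppressed and 27.3% induced. The median GC of the tested members (36.6%) was lower than that of the zinc finger genes on 19p (42.8%), on 19q (43.1%) and elsewhere (45.9%). With the GC and length correction the other zinc finger genes of chromosome 19 had a median of 0.00, and 35 of 206 were called suppressed and 31 induced. These were 17.0% and 15.0%, against 27.5% and 30.7% of all genes tested with the same correction. The differences between these groups of genes were not tested.

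KRAB domains act through KAP1 and its partners, so these genes were looked at beside the members. Of 35 tested genes of a list of KAP1 corepressor genes, 13 were called suppressed and 6 induced with OmoMYC, with a median log2 fold change of -0.07. These were 37.1% and 17.1% of the list, against 25.7% and 27.3% of all genes tested. TRIM28 itself was at 584 to 738 CPM in EGFP and 727 to 827 CPM in OmoMYC libraries, overlapping, with a log2 fold change of 0.22 ± 0.0875 (SE, adjusted p = 0.0507, edgeR). This was at the edge of the threshold: other size factors, filters and tools gave adjusted p from 0.0428 to 0.0768, and TRIM28 was called induced with library size only, with either other filter, with limma-voom, and without EGFP replicate 3 (0.0056). With the GC and length correction TRIM28 took the other direction (-0.14, adjusted p = 0.0035). SETDB1, the methyltransferase, rose from 65.6 to 66.5 CPM in EGFP to 75.3 to 77.6 CPM in OmoMYC libraries (0.21 ± 0.0655 SE, adjusted p = 0.0181, edgeR). The SETDB1 call was lost when EGFP replicate 2 or any 1 OmoMYC library was left out (adjusted p from 0.0787 to 0.1225), and with the correction the log2 fold change was 0.105 (adjusted p = 0.0467). Its partner ATF7IP was not called (-0.07 ± 0.063 SE, adjusted p = 0.338, edgeR), and with the correction it was called in the other direction (0.12, adjusted p = 0.0204). The HP1 genes CBX5 (HP1 alpha) and CBX3 (HP1 gamma) both fell. CBX5 went from 1126 to 1211 CPM in EGFP to 941 to 1011 CPM in OmoMYC libraries (-0.28 ± 0.0602 SE, adjusted p = 0.0033, edgeR), and CBX3 from 417 to 591 CPM to 327 to 352 CPM (-0.54 ± 0.108 SE, adjusted p = 0.002, edgeR). SUV39H2, an H3K9 methyltransferase of constitutive heterochromatin, had the largest fall of the list, from 52.1 to 64.0 CPM to 35.4 to 40.6 CPM (-0.59 ± 0.0944 SE, adjusted p = 5.27e-04, edgeR). KIAA1551, also called RESF1 and a partner of SETDB1 in silencing retroelements, went from 68.9 to 82.0 CPM to 49.7 to 54.1 CPM (-0.53 ± 0.0852 SE, adjusted p = 5.65e-04, edgeR). With the GC and length correction these 4 falls were still called but smaller, at -0.15 for CBX5, -0.20 for CBX3, -0.27 for SUV39H2 and -0.19 for KIAA1551. Over the 35 genes of the list, 17 were then called suppressed and 7 induced, with a median of -0.13. These were 48.6% and 20%, against 27.5% and 30.7% of all genes tested with the same correction.

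In the parental experiment, dTAG47 and DMSO libraries were compared to see whether the compound itself changed the members. None of the 28 tested members was called suppressed or induced by edgeR's quasi-likelihood test, DESeq2 or limma-voom. Over all 14470 genes tested, 0.0415% were called suppressed and 0.117% induced. At an unadjusted p under 0.05, 6 members were lower and 0 higher, against 3.40% and 3.88% of all genes tested. All 28 had a log2 fold change below 0, where 50.8% of all genes tested did, and the members' median was -0.11 (all genes 0.00). In 2 of the 28, ZNF682 and ZNF429, each dTAG47 library was below each DMSO library, compared with 1.47% of all genes tested.

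The replicates differed among themselves by a similar amount. Relative to the DMSO mean, the median member was at 106%, 104%, 96.1% and 94.6% in DMSO replicates 1 to 4, and at 94.1%, 102%, 89.3% and 83.2% in dTAG47 replicates 1 to 4. The libraries of replicates 3 and 4 were the lower ones in both groups: their median log2 difference from replicates 1 and 2 was -0.13 over the members in DMSO and -0.20 in dTAG47 libraries. Within replicates 1 and 2 the median difference of dTAG47 from DMSO was -0.08, and within replicates 3 and 4 it was -0.15, with 27 of 28 members lower in each. The same count over all genes is not given here. With a term for replicates 1 and 2 against 3 and 4, ZNF100, ZNF708, ZNF43 and ZNF492 were called suppressed (adjusted p = 0.0052, 0.0386, 0.0467 and 0.0454, edgeR). That term called 794 genes in either direction over all 14470 tested, in place of 23. With the GC and length correction the median was -0.03, 20 members were lower and 8 higher, and none was called. Of all genes tested, 50.5% were lower with this correction.

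**Figure D5:**
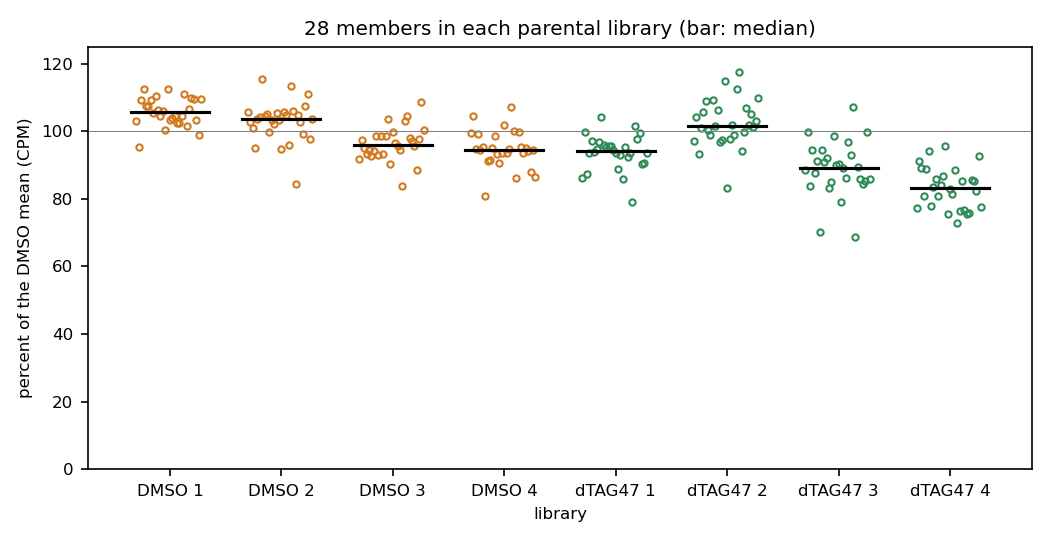
Level of the 28 tested members in each parental library as percent of the gene's DMSO mean in CPM, with the median as a bar. The medians go from 106% (DMSO replicate 1) down to 83.2% (dTAG47 replicate 4), and dTAG47 replicate 2 (102%) is among the DMSO libraries.

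The 3 members with the largest log2 fold change with dTAG47 were ZNF492, ZNF626 and ZNF208. ZNF492 was at 5.60, 5.78, 5.39 and 5.26 CPM in DMSO libraries and at 4.35, 5.49, 3.78 and 4.15 CPM in dTAG47 libraries (-0.31 ± 0.106 SE, adjusted p = 0.673, edgeR). Only dTAG47 replicate 2 overlapped the DMSO libraries, and without it ZNF492 was called suppressed (-0.43, adjusted p = 0.0409, edgeR). ZNF626 was at 7.93, 8.37, 6.83 and 5.86 CPM against 6.87, 7.28, 5.10 and 5.64 CPM (-0.22 ± 0.123 SE, adjusted p = 0.68, edgeR). ZNF208 was at 2.74, 2.57, 2.54 and 2.87 CPM against 2.31, 2.65, 2.31 and 1.95 CPM (-0.22 ± 0.117 SE, adjusted p = 0.675, edgeR). The groups overlapped in all 3 genes.

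The groups also overlapped in the 3 members with the highest CPM, not corrected for length. ZNF43 was at 106, 106, 96.9 and 96.1 CPM in DMSO libraries and at 94.2, 103, 90.3 and 89.6 CPM in dTAG47 libraries (-0.10 ± 0.0536 SE, adjusted p = 0.674, edgeR). ZNF91 was at 75.5, 68.1, 65.6 and 65.2 CPM against 67.0, 69.9, 58.9 and 58.7 CPM (-0.11 ± 0.0641 SE, adjusted p = 0.682, edgeR). ZNF714 was at 51.0, 48.0, 47.3 and 45.7 CPM against 46.1, 48.7, 44.3 and 38.8 CPM (-0.11 ± 0.0637 SE, adjusted p = 0.682, edgeR). In each of them dTAG47 replicates 3 and 4 were below the other dTAG47 libraries.

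The members with the smallest adjusted p (ZNF675) and the largest called fall (ZNF257) with OmoMYC had overlapping groups with dTAG47, as did ZNF93. ZNF675 was at 23.01, 22.6, 18.6 and 19.7 CPM in DMSO libraries and at 20.9, 22.1, 17.7 and 17.9 CPM in dTAG47 libraries (-0.10 ± 0.0834 SE, adjusted p = 0.743, edgeR). ZNF257 was at 4.15, 4.59, 3.39 and 4.05 CPM against 3.86, 4.55, 3.92 and 3.09 CPM (-0.07 ± 0.122 SE, adjusted p = 0.859, edgeR). ZNF93 was at 15.3, 16.4, 15.6 and 16.7 CPM against 15.97, 16.7, 16.01 and 14.6 CPM (-0.02 ± 0.0603 SE, adjusted p = 0.935, edgeR). In none of these 3 genes did the groups separate. ZNF85 was at 24.9, 24.7, 23.3 and 21.6 CPM in DMSO and at 22.9, 23.3, 22.3 and 19.7 CPM in dTAG47 libraries (-0.10 ± 0.065 SE, adjusted p = 0.705, edgeR). It was near 1 CPM in EGFP libraries, and the cause of this difference in level between the 2 tables was not tested. The difference in response between the 2 experiments was not tested, since they differ in cells, agent, time and table.

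Of the KAP1 corepressor genes, 0 of 37 tested were called with dTAG47 by edgeR, DESeq2 or limma-voom, and 0 reached an unadjusted p under 0.05. TRIM28 was at 458 to 502 CPM in DMSO and 448 to 529 CPM in dTAG47 libraries (0.03 ± 0.0499 SE), and SETDB1 at 50.5 to 55.6 and 52.7 to 55.4 CPM (0.05 ± 0.0472 SE). The other zinc finger genes of chromosome 19 had a median log2 fold change of -0.05 with dTAG47, none of the 209 was called, and 147 were below 0.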

How the data were processed

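RNA-seq from 14 libraries of CHP-134 cells was used. Per the study's methods, reads were trimmed with Cutadapt, aligned to hg19 with STAR and counted per gene with FeatureCounts, and the authors deposited whole-number counts per gene without normalization. Their annotation, strand setting and treatment of multi-mapping reads are not given in the sources used here, and such reads bear on genes that are copies of each other. The submitters' processing notes also name DESeq2. All columns were used, and the PDPK1-depletion samples were not analysed here.

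Each table was fitted on its own over all genes with edgeR 4.0.16 in R 4.3.3: genes were filtered with filterByExpr, libraries were scaled by TMM, and groups were compared by the robust quasi-likelihood test with Benjamini-Hochberg adjustment of every tested gene and an FDR of 0.05. "Called" refers to this threshold. SEs were derived from the log2 fold change and its F statistic, and CPM are counts per 1000000 of the TMM-scaled library size. The biological coefficient of variation was 0.0838 in the engineered and 0.0564 in the parental experiment. Alternatives were other size factors, other filters, DESeq2 1.42.0, limma-voom (limma 3.58.1), a replicate block, leaving out each library, a term for replicates 1 and 2 against 3 and 4 in the parental experiment, and a correction that removed from each library the trend of log counts on GC content and log2 exonic length (natural splines with 5 degrees of freedom each). The fit was tested on simulated data. Positions, exonic length, GC content and fingers came from GENCODE annotation lifted to GRCh37 and its sequence, by gene identifier, and promoters from RefSeq (GRCh38.p14), where only names were matched and no coordinates were joined.

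Members and lists were chosen with earlier results of these data known, so no list was tested. Named genes were ZNF91, ZNF93, ZNF43, ZNF85, ZNF208, ZNF257 and ZNF675, the 3 members with the highest mean CPM in each experiment, the 5 largest called falls and 5 largest called rises with OmoMYC whose groups do not overlap (no rise was called), the 3 largest changes with dTAG47, and from the KAP1 list TRIM28, SETDB1, ATF7IP, CBX5 and the 3 largest called changes. ZNF254, ZNF429, ZNF100, ZNF90, ZNF726, ZNF66 and ZNF724P were named in addition after their values were seen. Counting error limits members with few reads, and the floor was taken as 3 counts per library.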

Additional observations from a re-analysis of the deposited data

Results flagged for a closer look

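In the parental experiment, each group of 4 libraries was searched for a library far from the other 3, over the 28 tested members and both groups (56 groups looked at, of which chance flags about 1 in 20). ZNF676 was at 6.67 CPM in DMSO replicate 4, while the other DMSO libraries lay between 7.98 and 8.20 CPM. ZNF737 was at 20.6 CPM in dTAG47 replicate 2, while the other dTAG47 libraries lay between 17.2 and 17.8 CPM. Neither gene was called in the comparison of dTAG47 with DMSO.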

How the results depend on the processing

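With OmoMYC, the members kept their direction and 16 or 17 suppressed calls with other size factors, filters, tools or the replicate block (17). The exception was the GC content and length correction, with 4 called suppressed, 1 induced and a median of -0.115 (4, 1 and -0.113 with the replicate block added). With the same correction the other zinc finger genes of chromosome 19 had 35 suppressed (35) and a median of 0.004 (0.006) in place of 65 and -0.157, and the fold changes of ZNF91 (0.064, 0.062), TRIM28 (-0.141, -0.140) and ATF7IP (0.120, 0.120) changed sign, as did those of the suppressed members ZNF253 and ZNF708. The replicate block called TRIM28 induced (0.229, adjusted p = 0.0050, edgeR). The cause was not tested. Leaving out each library gave 13 (without EGFP replicate 2) to 17 suppressed members and medians from -0.538 to -0.422. For the KAP1 genes it gave 2 to 8 induced in place of 6, with 3 without EGFP replicate 2 or OmoMYC replicate 1 and 2 without OmoMYC replicate 3. For the other zinc finger genes of chromosome 19 it gave 13 to 25 induced in place of 23 (13 without EGFP replicate 2 or OmoMYC replicate 3, 14 without OmoMYC replicate 1), 38 (without OmoMYC replicate 1) to 77 suppressed, and medians from -0.223 to -0.130. Over all genes, the same settings called 5712 (without OmoMYC replicate 3) to 8249 (without EGFP replicate 3) in either direction, in place of 7311. There were 5984 calls without EGFP replicate 2 and 5919 without OmoMYC replicate 1.

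With dTAG47, the replicate block called 1 member (ZNF100), 1 KAP1 gene and 4 other zinc finger genes of chromosome 19 suppressed. The term for replicates 1 and 2 against 3 and 4 called 4 members, 1 KAP1 gene and 4 other zinc finger genes of chromosome 19 suppressed and 1 of the latter induced. Leaving out each library gave 0 or 1 suppressed in the members and in the other zinc finger genes, 1 in each case without dTAG47 replicate 2, and members' medians from -0.164 to -0.049. Over all genes, alternatives added after seeing the data called 59 (DESeq2), 668 (replicate block), 115 (GC content and length correction), 231 (both together), 794 (term for the replicates) and 6 to 84 (each library left out) in place of 23. The correlations of same-numbered libraries' deviations were -0.070 to 0.293 with OmoMYC and 0.009 to 0.159 with dTAG47. Not every library correlated best with its own number, and these values do not settle whether the replicate numbers pair the libraries. Members with few counts limit these data, as do the 4 that share sequence and those whose level differed between EGFP and DMSO libraries.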

Other observations

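Low levels in the engineered table went together with how a gene was listed. Among genes of at least 1 CPM in DMSO libraries and present in both tables, the 12211 whose symbol stood under 1 identifier in the engineered table had a median EGFP level of 1.05 times the DMSO level, and 0.974% of them were below 0.1 times. The 208 whose symbol stood under more than 1 identifier had a median of 0.0085 times, and 77.9% were below 0.1 times. Of the 27 members in this comparison, 6 were below 0.1 times. They were ZNF486, ZNF737, ZNF85, ZNF100, ZNF676 and ZNF98, of which ZNF737, ZNF100 and ZNF676 stood under 2 identifiers and the other 3 under 1. The cause was not tested.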
